A study of Mus musculus with 15 samples.

Results

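The EGF family and neuregulin ligands are secreted or membrane-bound growth factors that activate the ErbB receptors, and 9 of their genes were followed here in mouse lung: Egf, Tgfa, Areg, Ereg, Hbegf, Btc, Epgn, Nrg1 and Nrg4. A ligand was measured through the probe sets whose platform annotation names it and no other gene, and its brightest probe set, by mean log2 level over all 15 arrays, stood for the gene. In this way 8 of the 9 ligands were measured, among 18193 genes in all. No probe set was named for Areg alone, so amphiregulin was not analysed here. The 8 measured ligands have 13 probe sets, and 4 of them (Egf, Epgn, Ereg and Nrg1) have 1 each.

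RNA was hybridised to single-colour Affymetrix arrays in 5 groups of 3 arrays each. At 12 months the groups were lung tumors of Ptend/dSmad4d/d mice, each sample cut from 1 tumor, and pieces of whole lung of wildtype mice. At 7 months they were whole-lung pieces of Ptend/dSmad4d/d mice, of Ptend/d mice and of wildtype mice, which the series describes as a stage before tumors. The Ptend/d deletion was present in every mutant group, the Smad4d/d deletion in the Ptend/dSmad4d/d groups, and neither in the wildtype mice. All mice were of mixed background and untreated. The promoter or cell type that drove the recombination is not stated in these sources, so a sample can hold cells without the deletions in an unknown share.

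All ligands of this family are made as precursors anchored in the cell membrane, from which ADAM proteases and their partners release the growth factor. EGF, TGF-alpha, amphiregulin and epigen bind the EGF receptor, HB-EGF, betacellulin and epiregulin bind both the EGF receptor and ERBB4, and the neuregulins bind ERBB3 or ERBB4. ERBB2 has no ligand of its own and signals as the partner of the other receptors. In the lung these ligands are known for epithelial growth and for repair after injury, and much of their activity is set by release from the cell surface, which an RNA level does not show.

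Array medians lay between 90.9 and 99.5, and arrays of the same group correlated at 0.982 to 0.996 over genes. Sftpc and Scgb1a1, which mark alveolar type 2 and club cells of the lung, were at 11450 to 13080 and at 14428 to 16192 over the 15 arrays, in the tumors too. Ribosomal 18S control probe sets were at 1121 to 2036 in the tumors, against 5492 to 8084 on the other 12 arrays. Xist, expressed from the inactive X chromosome, was at 64.1 to 237 in the tumors and at 69.8 on array 2 of the 12-month wildtype lungs, against 6786 and 6917 on the other 2. All 3 tumors thus had low Xist, as male tissue has, while 2 of their 3 wildtype arrays had high Xist. In the 12-month comparison sex and tumor therefore cannot be fully told apart, a limit on every tumor difference below. At 7 months array 3 of the wildtype lungs had 48.1, and the other 8 arrays had 3678 to 5451. Smad4 itself was not lower where it was deleted: its chosen probe set averaged 3303 ± 364 in the tumors and 2819 ± 137 in wildtype lungs at 12 months (SD, n = 3 each). At 7 months it averaged 3292 ± 109 in Ptend/dSmad4d/d lungs, 2938 ± 9.77 in Ptend/d lungs and 3220 ± 73.7 in wildtype lungs. Its other probe sets did not average lower than in wildtype lungs of the same month either, and 1422487_at was called higher in the tumors. There it averaged 3425 ± 183, against 2631 ± 138 in wildtype lungs (log2 difference 0.38, adjusted p = 0.0439, limma over 34945 probe sets, of which 11.2% were called). Whether the Smad4 probe sets read the deleted exons is not stated in these sources, so the levels do not check the genotype. The sample count of 3 per group limits the precision of every value below.

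None of the 8 ligand genes passed the test in any comparison between groups. The 12-month and 7-month arrays were compared with limma on log2(intensity + 16), with Benjamini-Hochberg adjustment over 18193 genes and a gene called at an adjusted p under 0.05. In the tumors against wildtype lung at 12 months, 0 of 8 ligands were called, where 15.2% of all genes were, and 0 of 8 had an unadjusted p under 0.05, where 30.7% of all genes had. In Ptend/dSmad4d/d against wildtype lung at 7 months, 0 of 8 were called, against 7.81% of all genes, and 1, Ereg, had an unadjusted p under 0.05, where 23.3% of all genes had. For Ptend/d against wildtype lung the count was also 0 of 8, against 15.2% of all genes, and the 1 ligand with an unadjusted p under 0.05 was Nrg1, where 29.0% of all genes had one. Between Ptend/dSmad4d/d and Ptend/d lung it was 0 of 8, against 1.76% of all genes, with 1 of 8, again Ereg, under 0.05 unadjusted, where 17.9% of all genes were. A missed threshold does not show equal levels, and the intervals below give the sizes that the data allow.

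Median log2 differences over the 8 ligands were -0.05 in the tumors against wildtype, -0.10 in Ptend/dSmad4d/d and -0.08 in Ptend/d lungs against wildtype, and 0.01 in Ptend/dSmad4d/d against Ptend/d lungs. The medians over all genes were 0.01, 0.01, 0.02 and 0.00 in the same order. Signs were mixed in each comparison, with 4 ligands positive and 4 negative in the tumors. The 3 arrays of the tumors lay apart from the 3 wildtype arrays for 0 of 8 ligands, where 37.5% of all genes were apart in this way. At 7 months 1 of 8 was apart between Ptend/dSmad4d/d and wildtype lungs (Ereg; 26.1% of all genes), 1 of 8 between Ptend/d and wildtype lungs (Nrg1; 35.6%) and 1 of 8 between Ptend/dSmad4d/d and Ptend/d lungs (Nrg1; 28.6%). All 3 comparisons at 7 months use the same 9 arrays, and both against wildtype share the wildtype arrays.

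**Figure D1:**
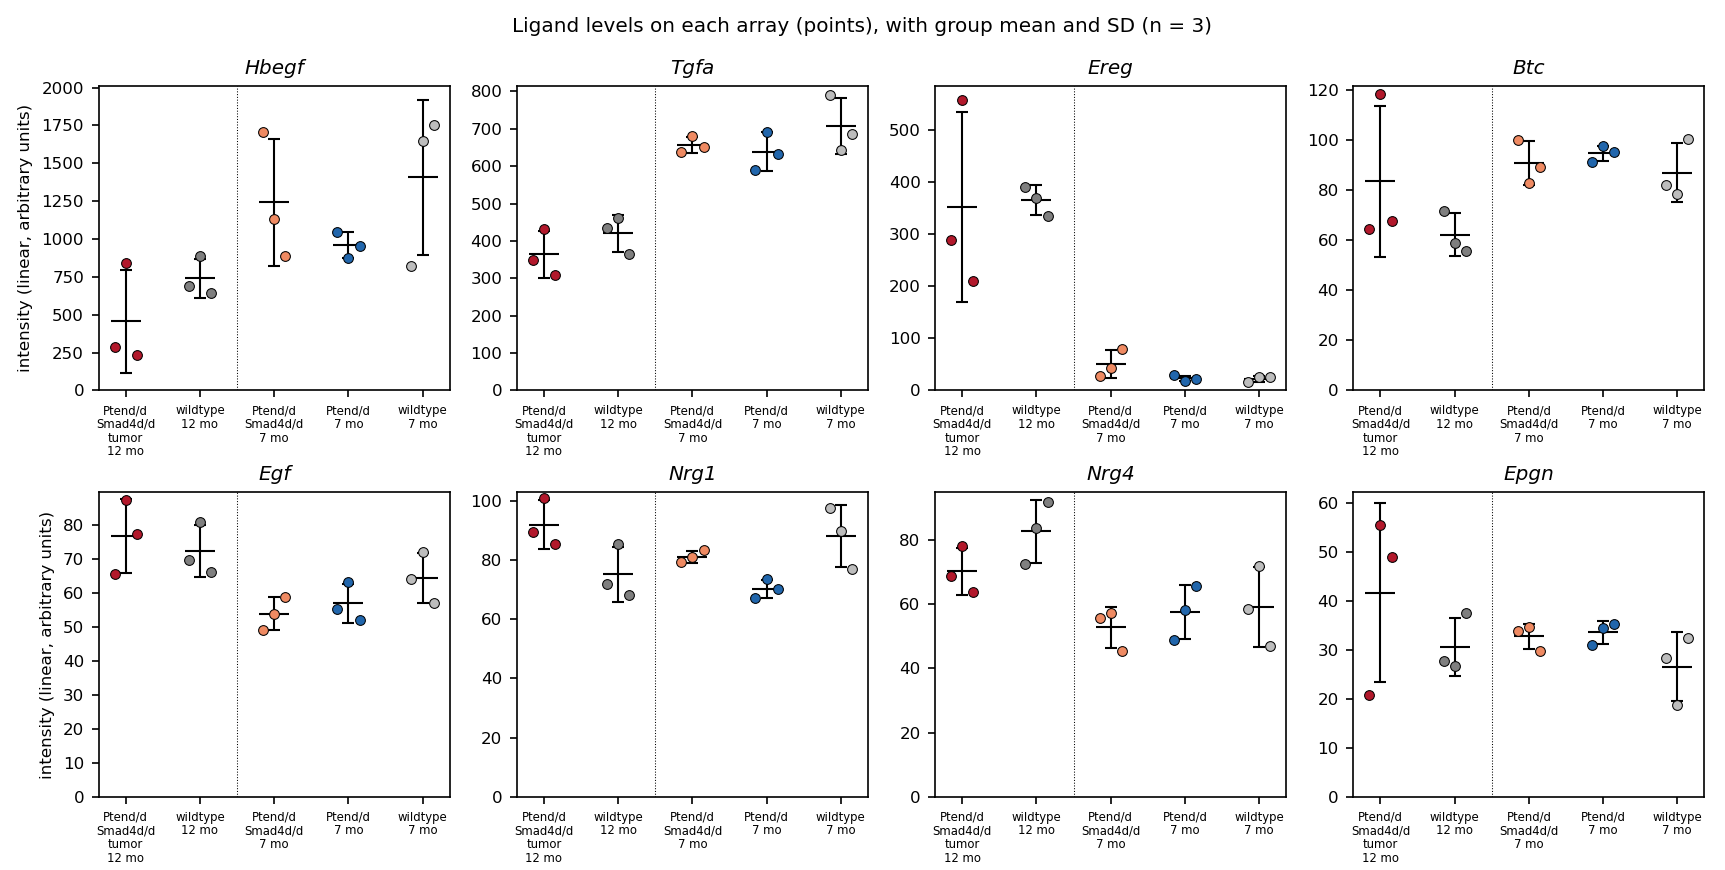
Intensity (linear, arbitrary units) of the chosen probe set of each measured ligand on every array, with group means and SD (n = 3). The tumors stand left of the wildtype lungs of 12 months, and the mutant lungs of 7 months left of their wildtype. Ereg lies at 209 to 557 on the 12-month arrays and at or below 80.0 on all 7-month arrays, Tgfa lies lower on every 12-month array than on any 7-month array, and tumor array 2 is the highest tumor array for all 8 ligands.

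The EGFR ligands come first. Tgfa, which encodes TGF-alpha, an epithelial growth factor, was at 350, 432 and 310 in the tumors, against 435, 462 and 365 in wildtype lungs at 12 months. The ranges overlapped, since tumor array 2 lay near the wildtype level. Its log2 difference was -0.21 ± 0.15 (SE; 95% interval -0.57 to 0.15, adjusted p = 0.409). At 7 months Tgfa was at 639, 682 and 651 in Ptend/dSmad4d/d lungs, at 589, 693 and 633 in Ptend/d lungs, and at 790, 643 and 687 in wildtype lungs. Wildtype array 1 was the highest of these 9, and all 3 groups overlapped. The log2 difference from wildtype was -0.10 (95% interval -0.31 to 0.11) in Ptend/dSmad4d/d and -0.14 (-0.35 to 0.07) in Ptend/d lungs, and Ptend/dSmad4d/d less Ptend/d gave 0.04 (-0.17 to 0.25). At 7 months the intervals thus leave room for a level at most 1.28-fold lower in either mutant on this probe set.

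Tgfa was read by 2 further probe sets, and they did not follow the chosen one. On 1450421_at the tumors had 197, 237 and 219, against 183, 181 and 184 in wildtype lungs at 12 months. Every tumor array lay above every wildtype array there, the opposite of the order of means on the chosen probe set 1421943_at. The log2 difference on 1450421_at was 0.23 (95% interval 0.01 to 0.45), with an adjusted p of 0.168 from limma over 34945 probe sets. Over the 15 arrays the pair correlated at r = -0.71. The remaining probe set, 1421942_s_at, stayed between 18.2 and 30.8 on all arrays, near the dim end of the range. The direction of Tgfa in the tumors therefore differs between its probe sets, and neither difference passed the test.

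**Figure D2:**
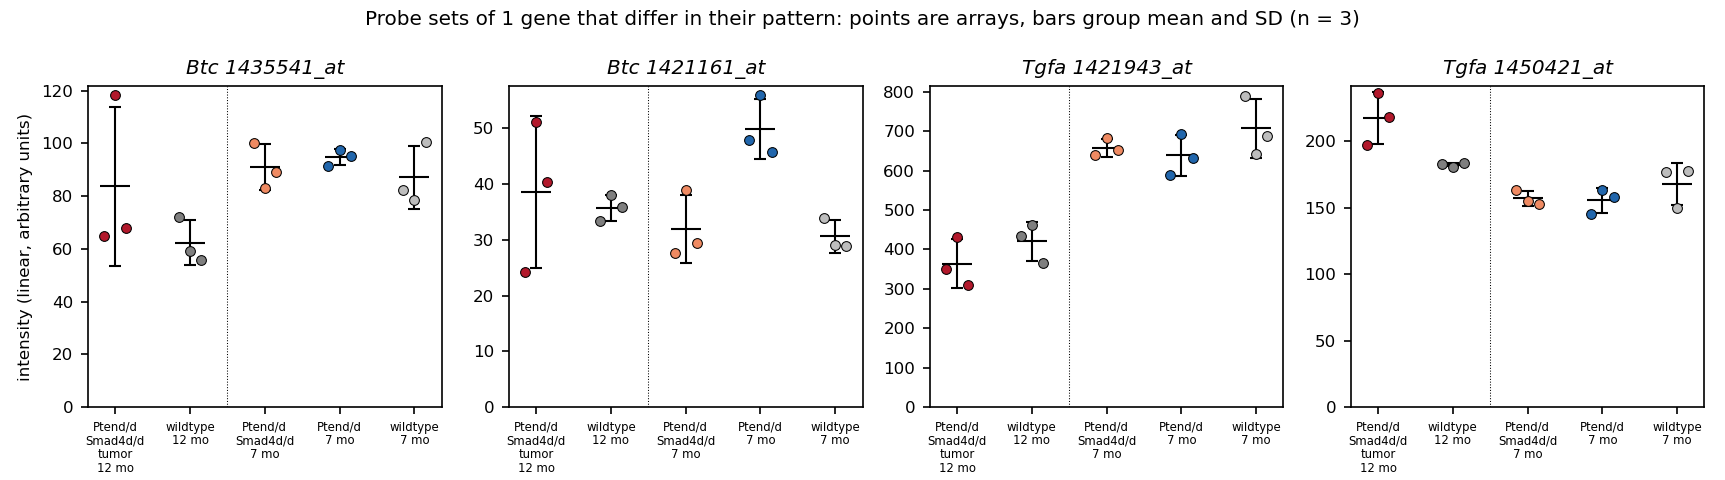
Intensity (linear, arbitrary units) on every array for the chosen and a further probe set of Btc and of Tgfa, with group means and SD (n = 3). For Btc the further probe set 1421161_at places all 3 Ptend/d lungs (45.9 to 56.0) above the wildtype lungs of 7 months (28.9 to 34.0), and for Tgfa the 12-month tumors lie above wildtype on 1450421_at but below it on average on 1421943_at.

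The stretch of DNA just before a gene's start is shown for Tgfa and Btc, ligands whose probe sets disagree, and for Epgn, which lies in the same gene cluster as Btc. RefSeq sequences of GRCm38.p6 matched 6 of the 9 ligands by symbol (Egf, Epgn, Areg, Btc, Tgfa and Nrg4). Each line holds the 250 bases before the start, 5′ to 3′ on the gene's own strand, from chr6:86194972-86195221 (+) for Tgfa, chr5:91027267-91027516 (+) for Epgn and chr5:91402995-91403244 (-) for Btc, and capitals mark matches to the motifs named after them.
Tgfa: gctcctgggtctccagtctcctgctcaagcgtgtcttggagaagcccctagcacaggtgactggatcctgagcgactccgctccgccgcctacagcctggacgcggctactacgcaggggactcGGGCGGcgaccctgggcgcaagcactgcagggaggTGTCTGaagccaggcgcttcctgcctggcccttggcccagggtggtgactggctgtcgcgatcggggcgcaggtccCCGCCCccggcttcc
Epgn: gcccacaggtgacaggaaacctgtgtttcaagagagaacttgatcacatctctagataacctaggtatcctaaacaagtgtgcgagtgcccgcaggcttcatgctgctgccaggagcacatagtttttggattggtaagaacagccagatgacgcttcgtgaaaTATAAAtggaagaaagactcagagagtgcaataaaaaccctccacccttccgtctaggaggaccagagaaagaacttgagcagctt
Btc: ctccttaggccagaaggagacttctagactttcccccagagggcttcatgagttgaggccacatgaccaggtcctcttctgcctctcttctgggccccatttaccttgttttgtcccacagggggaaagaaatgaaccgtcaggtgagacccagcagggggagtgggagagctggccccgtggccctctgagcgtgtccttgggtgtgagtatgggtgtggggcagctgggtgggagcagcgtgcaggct
The search used 6 motifs on both strands: the TATA box TATAAA, the GC box GGGCGG, the SMAD element CAGACA, the FOXO element GTAAACA, the AP-1 site TGANTCA and the cyclic AMP response element TGACGTCA. They occur in 12.4%, 32.7%, 17.1%, 3.17%, 6.75% and 1.55% of the 32851 windows of this length, in that order. The Tgfa window held 2 GC boxes and 1 SMAD element, read on the opposite strand as TGTCTG. The Epgn window held 1 TATA box, 86 to 81 bases before the start. The Btc window held 0 matches, as did that of Nrg4. Epgn, Ereg, Areg and Btc, 4 ligand genes of the family, follow each other on chromosome 5 with no other protein-coding gene of the RefSeq table between them.

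Egf, the founding member of the family, was at 65.5, 87.3 and 77.3 in the tumors, against 69.8, 80.9 and 66.2 in wildtype lungs at 12 months. The groups overlapped fully, with a log2 difference of 0.07 (95% interval -0.22 to 0.36, adjusted p = 0.754). At 7 months Egf was at 49.2, 53.8 and 58.8 in Ptend/dSmad4d/d lungs, 55.4, 63.4 and 52.2 in Ptend/d lungs, and 64.2, 71.9 and 57.2 in wildtype lungs. Means were lowest in Ptend/dSmad4d/d lungs, but 1 of their arrays lay above the lowest wildtype array. The log2 difference from wildtype was -0.20 (-0.42 to 0.02, adjusted p = 0.248) in Ptend/dSmad4d/d and -0.14 (-0.35 to 0.08, adjusted p = 0.385) in Ptend/d lungs, and it was -0.06 (-0.28 to 0.16) between the mutants.

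Epgn encodes epigen, an epithelial mitogen. It was the most variable of the EGFR ligands in the tumors, at 20.9, 55.5 and 48.9, against 27.8, 26.8 and 37.5 in wildtype lungs at 12 months. One tumor array lay below all 3 wildtype arrays and the other 2 above them. The log2 difference was 0.26 (95% interval -0.37 to 0.89, adjusted p = 0.565). At 7 months Epgn was at 33.9, 34.6 and 29.9 in Ptend/dSmad4d/d lungs, 31.0, 34.4 and 35.4 in Ptend/d lungs and 28.5, 18.9 and 32.5 in wildtype lungs. These values are close to the added 16, so log2 differences are compressed. They were 0.21 (-0.06 to 0.48) for Ptend/dSmad4d/d and 0.23 (-0.04 to 0.50) for Ptend/d lungs against wildtype, and -0.02 (-0.29 to 0.25) between the mutants.

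Hbegf had the widest interval of the 8 ligands in each of the 4 comparisons. It encodes HB-EGF, a heparin-binding ligand of EGFR and ERBB4 that macrophages and epithelium make. Its values were 287, 845 and 235 in the tumors, against 689, 889 and 647 in wildtype lungs at 12 months. Tumors 1 and 3 lay below every wildtype array, and tumor 2 lay among them. The log2 difference was -0.90 ± 0.46 (SE; 95% interval -2.01 to 0.22, adjusted p = 0.247). Without tumor array 2 it was -1.44 with an adjusted p of 0.00831, so that this single array decides whether Hbegf is called lower in the tumors. The second probe set, 1418349_at, gave the same picture, with 159, 447 and 153 in the tumors against 392, 548 and 405 in wildtype lungs (log2 difference -0.94, adjusted p = 0.189 over probe sets), and correlated with the chosen one at r = 0.98 over the 15 arrays.

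Tumor 2 had the highest value of the 3 tumors for all 8 measured ligands. Its 5′ to 3′ ratio of the control probe sets was 0.64 for actin and 0.82 for Gapdh, against 0.56 to 0.57 and 0.64 to 0.75 on the other tumor arrays, a measure of RNA length whose part was not tested. It also differed in markers of lung cell types. Summed intensity of 5 measured alveolar type 2 markers was 37781, 48595 and 28435 in tumors 1 to 3, against 46148 to 47830 in wildtype lungs at 12 months. For 7 endothelial markers, of which 5 fell in the tumors, the sums were 7500, 9829 and 6625, against 13038 to 14899. For 6 basal and squamous markers, all 6 of which rose, they were 3559, 2577 and 6381, against 97.5 to 144. Tumor 2 thus had the highest alveolar and endothelial sums and the lowest basal sum of the tumors. For 8 macrophage markers, of which 3 fell (Cd68, Itgax and Adgre1), the sums were 28414, 27376 and 20782 in the tumors, against 35158 to 40266. The part of this cell makeup in the ligand levels was not tested, and in pieces of tissue fewer cells of a type and less RNA per cell cannot be told apart.

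At 7 months Hbegf was at 1705, 1132 and 886 in Ptend/dSmad4d/d lungs, at 1047, 876 and 954 in Ptend/d lungs and at 820, 1649 and 1756 in wildtype lungs. Ptend/d lungs were close together, while arrays of the other 2 groups spread over the same wide range. The log2 difference from wildtype was -0.16 (95% interval -0.87 to 0.55, adjusted p = 0.819) in Ptend/dSmad4d/d and -0.47 (-1.18 to 0.23, adjusted p = 0.368) in Ptend/d lungs. Between the mutants it was 0.32 (-0.39 to 1.03, adjusted p = 0.635). Macrophage marker sums were 23067, 20955 and 26155 in Ptend/dSmad4d/d lungs, 20807, 17576 and 19716 in Ptend/d lungs, and 18058, 27791 and 25565 in wildtype lungs. In Ptend/dSmad4d/d lungs the highest sum stood on array 3, which had the lowest Hbegf value, while in wildtype lungs array 1 was lowest in both.

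Ereg encodes epiregulin, a ligand of EGFR and ERBB4 that inflamed and injured epithelium and macrophages make. It was at 289, 557 and 209 in the tumors, against 391, 370 and 335 in wildtype lungs at 12 months. Tumor 2 lay above all wildtype arrays and the other 2 tumors below them. The log2 difference was -0.16 ± 0.33 (SE; 95% interval -0.96 to 0.63, adjusted p = 0.788), an interval that runs from 1.94-fold lower to 1.55-fold higher.

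At 7 months Ereg was dim in all groups: 27.9, 43.0 and 80.0 in Ptend/dSmad4d/d lungs, 28.7, 18.7 and 22.1 in Ptend/d lungs, and 15.3, 26.4 and 25.5 in wildtype lungs. All 3 Ptend/dSmad4d/d arrays lay above the wildtype arrays, the lowest by a small margin, and array 1 overlapped Ptend/d. The log2 difference between Ptend/dSmad4d/d and wildtype lungs was 0.72 ± 0.26 (SE; 95% interval 0.13 to 1.32, unadjusted p = 0.0229, adjusted p = 0.139). Against Ptend/d lungs it was 0.69 (0.09 to 1.29, adjusted p = 0.225), and Ptend/d against wildtype lungs gave 0.03 (-0.56 to 0.63, adjusted p = 0.958). Without Ptend/dSmad4d/d array 1 the difference from wildtype was 0.98 with an adjusted p of 0.0487, the only array whose removal called it. Array 3, the highest for Ereg, also had the most neutrophil marker signal of its group: the sum of 4 measured markers was 3191, 2749 and 11666 on the Ptend/dSmad4d/d arrays, against 3709 to 7305 in Ptend/d and 2863 to 13232 in wildtype lungs. Wildtype array 1, with the sum of 13232, had the lowest Ereg value of all 15 arrays. Basal and squamous sums were 492, 928 and 1064 on the Ptend/dSmad4d/d arrays, in the same order as Ereg, against 296 to 341 in Ptend/d and 287 to 336 in wildtype lungs, with 2 of 6 markers (Krt15 and Trp63) called higher than in wildtype. In tumors 1 to 3 the order was the reverse, with basal and squamous sums of 3559, 2577 and 6381 beside Ereg at 289, 557 and 209. Mucous cell sums at 7 months were 3252 to 4196 in Ptend/dSmad4d/d, 1652 to 1685 in Ptend/d and 484 to 1083 in wildtype lungs. The part of these cell types in Ereg was not tested.

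**Figure D3:**
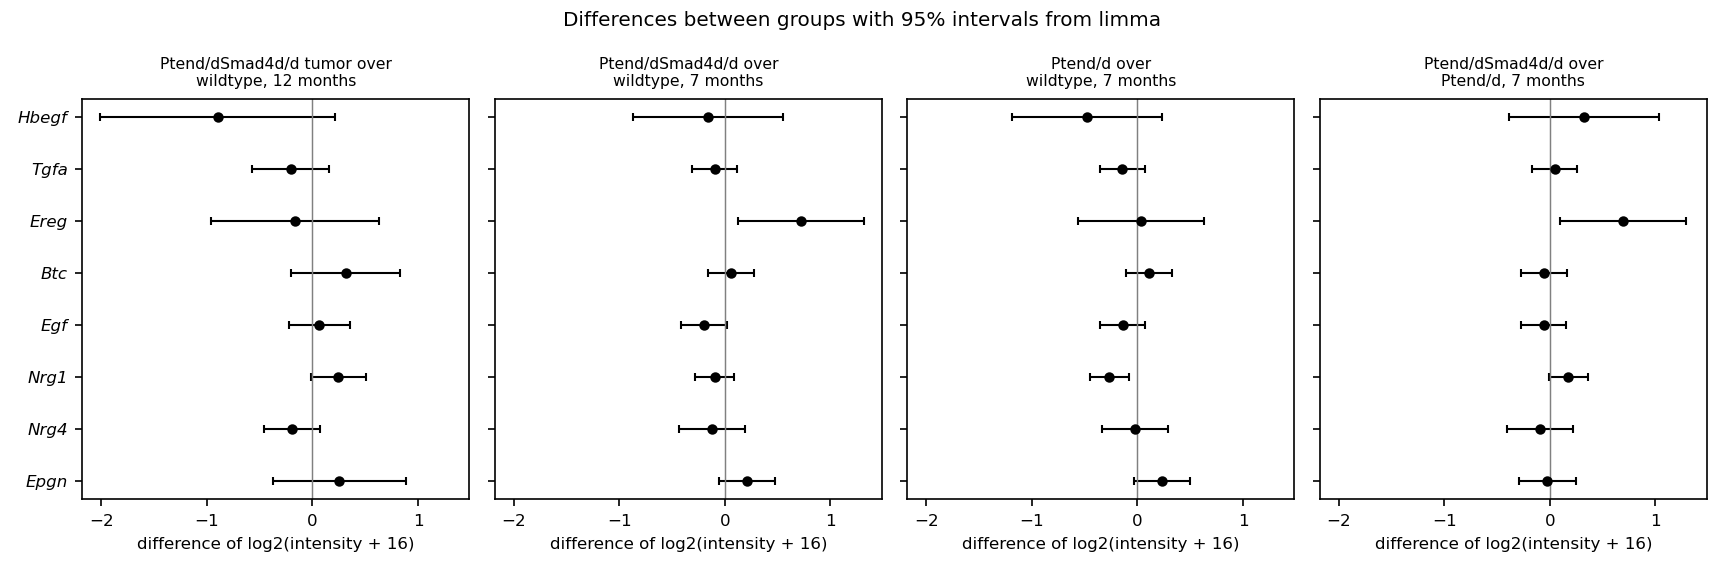
Log2 differences of log2(intensity + 16) for the 8 measured ligands in each comparison, with 95% intervals from limma (n = 3 arrays per group). The widest intervals are those of Hbegf. Before adjustment, 0 is excluded by the intervals of Ereg for Ptend/dSmad4d/d against wildtype (0.13 to 1.32) and against Ptend/d (0.09 to 1.29). The interval of Nrg1 for Ptend/d against wildtype (-0.45 to -0.08) also excludes 0.

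Btc encodes betacellulin, which binds EGFR and ERBB4. It was at 64.7, 119 and 67.8 in the tumors, against 71.9, 59.0 and 55.8 in wildtype lungs at 12 months. Tumor 2 again stood above the rest and the other tumors lay within the wildtype range. The log2 difference was 0.31 (95% interval -0.20 to 0.83, adjusted p = 0.380). At 7 months Btc was at 100.4, 83.2 and 89.2 in Ptend/dSmad4d/d lungs, 91.5, 97.6 and 95.3 in Ptend/d lungs and 82.2, 78.5 and 100.7 in wildtype lungs. Its log2 difference from wildtype was 0.06 (-0.16 to 0.27) in Ptend/dSmad4d/d and 0.11 (-0.11 to 0.33) in Ptend/d lungs, and it was -0.05 (-0.27 to 0.16) between the mutants.

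A second, dimmer probe set of Btc behaved otherwise. On 1421161_at Ptend/d lungs had 48.0, 56.0 and 45.9, against 34.0, 29.0 and 28.9 in wildtype lungs, and Ptend/dSmad4d/d lungs had 27.6, 39.0 and 29.3. Every Ptend/d array lay above every array of the other 2 groups of 7 months. The difference from wildtype was called when all probe sets were tested (log2 difference 0.50 ± 0.11 SE, 95% interval 0.26 to 0.74, adjusted p = 0.0184, limma over 34945 probe sets, of which 11.4% were called). Of the 13 ligand probe sets it was the only one called here; 0 were in the tumors (11.2% of all probe sets), 0 in Ptend/dSmad4d/d against wildtype lungs (4.71%) and 0 between the mutants (1.51%). For Ptend/dSmad4d/d against Ptend/d lungs it gave -0.46 (-0.71 to -0.22, adjusted p = 0.0764). On the chosen probe set 1435541_at the corresponding difference from wildtype was 0.11, and the probe sets correlated at r = 0.33, so the rise in Ptend/d lungs rests on 1 of the 2.

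Neuregulins activate ERBB3 and ERBB4. Nrg1, their best-studied member, which acts on airway epithelium among other tissues, was at 89.4, 101.0 and 85.2 in the tumors, against 71.9, 85.4 and 68.0 in wildtype lungs at 12 months. Only wildtype array 2 reached into the tumor range. The log2 difference was 0.25 ± 0.11 (SE; 95% interval -0.01 to 0.51, adjusted p = 0.181). At 7 months Nrg1 was at 79.2, 80.8 and 83.2 in Ptend/dSmad4d/d lungs, at 67.1, 73.4 and 70.1 in Ptend/d lungs and at 97.4, 89.8 and 76.9 in wildtype lungs. Ptend/d lungs lay below every other array of that age.

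The log2 difference of Nrg1 in Ptend/d against wildtype lungs was -0.27 ± 0.08 (SE; 95% interval -0.45 to -0.08, unadjusted p = 0.00974, adjusted p = 0.0587), just short of the threshold. It was called without wildtype array 3 (-0.35, adjusted p = 0.0182) and when dim genes were left out (adjusted p = 0.0331 over 12548 genes), so its call depends on these choices. In Ptend/dSmad4d/d against wildtype lungs the difference was -0.10 (-0.28 to 0.09, adjusted p = 0.539), and between Ptend/dSmad4d/d and Ptend/d lungs it was 0.17 (-0.01 to 0.36, adjusted p = 0.313). Wildtype array 3, the lowest wildtype array for Nrg1, is also the 7-month array without Xist signal. At 12 months the wildtype array without Xist signal, array 2, was instead the highest for Nrg1, at 85.4 against 71.9 and 68.0. All values of Nrg1 lie between 67.1 and 101.0, a narrow range over 15 arrays.

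Nrg4, a ligand of ERBB4, was at 68.8, 78.1 and 63.7 in the tumors, against 72.3, 83.6 and 91.8 in wildtype lungs at 12 months. The ranges overlapped, with a log2 difference of -0.19 (95% interval -0.46 to 0.08, adjusted p = 0.299). At 7 months it was at 55.8, 57.1 and 45.5 in Ptend/dSmad4d/d lungs, 48.9, 58.3 and 65.7 in Ptend/d lungs and 58.6, 71.9 and 47.1 in wildtype lungs, with full overlap. Its log2 differences at this age were -0.12 (-0.43 to 0.19), -0.02 (-0.34 to 0.29) and -0.10 (-0.41 to 0.22) for Ptend/dSmad4d/d against wildtype, Ptend/d against wildtype and Ptend/dSmad4d/d against Ptend/d. On a second, dimmer probe set of Nrg4, 1457123_at, they were 0.08, 0.08 and 0.00066 in the same order. The tumor difference there was 0.02 (95% interval -0.25 to 0.29). These signs were opposite to those on the chosen probe set, and the pair correlated at r = 0.60 over the 15 arrays.

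In 6 of 8 ligands, all neighbouring groups in the order of mean levels overlapped. For Tgfa the order was wildtype at 7 months (707 ± 75.5), Ptend/dSmad4d/d at 7 months (657 ± 22.1), Ptend/d (638 ± 52.0), wildtype at 12 months (421 ± 49.8) and the tumors (364 ± 62.2, SD, n = 3 each), and the one break lay between Ptend/d and wildtype at 12 months. For Ereg the order was wildtype at 12 months (365 ± 28.2), the tumors (352 ± 182), Ptend/dSmad4d/d (50.3 ± 26.8), Ptend/d (23.1 ± 5.09) and wildtype at 7 months (22.4 ± 6.17), with the break between the tumors and Ptend/dSmad4d/d. Both breaks thus separate the array sets of 12 and 7 months on the chosen probe sets. For Tgfa the array sets were also apart on 1450421_at, but in the opposite direction (181 to 237 at 12 months, 145 to 178 at 7 months).

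The wildtype lungs themselves carry that separation. Ereg was 10.0-fold higher in the 12-month wildtype lungs on the log2(intensity + 16) scale, at 365 ± 28.2 against 22.4 ± 6.17 in those of 7 months, and 44 of 18193 genes (0.242%) differed at least as much between the wildtype ages in either direction. On its chosen probe set Tgfa was 1.66-fold lower (log2 difference -0.73), a size that 13.7% of genes reached. On 1450421_at Tgfa was instead higher in the 12-month wildtype lungs, at 181 to 184 against 150 to 178 in those of 7 months. Hbegf was 1.80-fold lower on average, though its ranges overlapped. On the chosen probe sets the wildtype ranges of the ages were apart for 4 of 8 ligands (Tgfa, Btc, Ereg and Nrg4), where 48.7% of all genes were. Btc averaged 62.3 at 12 months and 87.1 at 7 months there. On its other probe set 1421161_at the ranges overlapped, with means of 35.7 at 12 months and 30.6 at 7 months. Other measures were also apart between the wildtype lungs of 12 and 7 months: macrophage marker sums (35158 to 40266 against 18058 to 27791), endothelial sums (13038 to 14899 against 20778 to 21552) and the Gapdh 5′ to 3′ ratio (0.72 to 0.74 against 0.41 to 0.61). Their part in the ligand levels was not tested. The series describes the ages as separate studies, so age and array set cannot be told apart, and these levels were given no test.

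Whether the tumors differed from their wildtype otherwise than the Ptend/dSmad4d/d lungs did from theirs was tested as a difference of differences over the 15 arrays. It called 0 of 8 ligands, where 3.17% of all genes were called, and 1 of 8, Nrg1, had an unadjusted p under 0.05, where 18.8% of all genes had (0.34, 95% interval 0.06 to 0.62, adjusted p = 0.173). For Ereg it was -0.89 (-1.85 to 0.07, adjusted p = 0.309), and -1.26 with an adjusted p of 0.0471 without tumor array 2. For Hbegf it was -0.74 (-2.0 to 0.52, adjusted p = 0.546).

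Genes with the pattern most like that of a ligand were taken by Pearson's r of log2(intensity + 16) over the 15 arrays, among 13634 genes with a mean of at least 64 in some group, as a description. For Ereg these were Ccl24 (r = 0.98), 4930415O20Rik (0.98) and Mdga1 (0.98). Ccl24, a chemokine, was at 1231, 1487 and 1462 in the tumors and 1704, 1590 and 1741 in wildtype lungs at 12 months, and at 9.15 to 114 on the 9 arrays of 7 months, a gap between the array sets like that of Ereg. With group means removed, r was 0.53 for Ccl24, 0.78 for 4930415O20Rik and 0.49 for Mdga1. For Tgfa they were Daam2 (0.97), Soga1 (0.97) and Gprc5a (0.97), with r of 0.74 to 0.79 after group means were removed.

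Hbegf was nearest to Bcl2l2 (r = 0.94), Slc25a51 (0.94) and Get4 (0.93), with r of 0.84 to 0.88 after group means were removed. Btc was nearest to the transcription factor gene Tfcp2l1 (0.91), the growth factor gene Bmp2 (0.91) and the chitinase gene Chia1 (0.89). Tumor 2 stood out for these genes as it did for Btc: Tfcp2l1 was at 441, 914 and 352 in the tumors, against 399, 439 and 386 in wildtype lungs, and Bmp2 at 128, 261 and 148, against 162, 152 and 124. Egf was nearest to Rbm15b (0.89), Nrg1 to Hax1 (0.87) and Nrg4 to Brk1 (0.90). Among the ligands, the pair with the highest r over the 15 arrays was Tgfa and Hbegf (0.78), and that with the lowest was Tgfa and Ereg (-0.86); all of these share arrays and the gap between the ages.

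Receptors, releasing enzymes and regulators of the pathway were set beside the ligands, 37 measured genes in all. In the tumors 5 of 37 rose and 1 fell, where 9.23% of all genes rose and 6.02% fell. Of 4 receptors 1 rose: Erbb2 was 1.77-fold higher (adjusted p = 0.0103), at 317, 276 and 330 in the tumors against 149, 166 and 187 in wildtype lungs at 12 months. Erbb3, the receptor of Nrg1, was at 962 ± 101 in the tumors and 877 ± 43.1 in wildtype lungs (adjusted p = 0.464). Of 11 genes of ligand release 3 rose: Adam12 (1.81-fold, adjusted p = 0.0244), a protease that can cleave HB-EGF, Adam9 (1.26-fold, adjusted p = 0.0449) and Nrd1 (1.25-fold, adjusted p = 0.0436), which encodes nardilysin, an enhancer of shedding. Lrig1, which restrains ErbB receptors, rose 1.66-fold (adjusted p = 0.0142), and the adaptor gene Gab2 fell by 0.58 on the log2 scale (adjusted p = 0.0217). Errfi1, also listed under receptor restraint, was not called on its chosen probe set (log2 difference -0.42, adjusted p = 0.401, limma over probe sets). Its other probe set, 1419816_s_at, was called lower (-1.45, adjusted p = 0.0147, where 11.2% of all probe sets were called). It read 382 to 706 in the tumors, against 1330 to 1638 in wildtype lungs. The gene counts here rest on chosen probe sets. Further marker lists also rose in the tumors: 6 of 6 ciliated cell markers (sums of 6458 to 10207 in the tumors, against 2828 to 3710 in wildtype lungs), 5 of 6 mucous cell markers (9442 to 12397, against 1048 to 2489) and 5 of 5 cardiac muscle markers (20380 to 22762, against 7967 to 11264). Their part in the levels of ligands and pathway genes was not tested.

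At 7 months the pathway genes differed between the mutants in their counts against wildtype. In Ptend/dSmad4d/d lungs 1 of 37 rose and 0 fell, where 6.42% and 1.39% of all genes did. In Ptend/d lungs 1 rose and 6 fell, where 9.79% and 5.4% did. Adam19, a metalloprotease that sheds neuregulin, was the gene that rose: it averaged 943 ± 39.5 in Ptend/dSmad4d/d, 1059 ± 44.6 in Ptend/d and 708 ± 34.4 in wildtype lungs (1.32-fold, adjusted p = 0.00703, and 1.48-fold, adjusted p = 0.000903). Egfr, the receptor of most of these ligands, fell by 0.86 on the log2 scale in Ptend/d lungs (adjusted p = 0.00357), at 382 ± 23.5 against 711 ± 109 in wildtype lungs (SD, n = 3 each), with Ptend/dSmad4d/d lungs between them at 571 ± 90.4. Between Ptend/dSmad4d/d and Ptend/d lungs 0 of 37 were called, where 1.76% of all genes were, so the mutants are not shown to differ in these genes.

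The other genes that fell in Ptend/d lungs were Rhbdf2 (fell by 0.35 on the log2 scale), which carries the ligand-releasing protease ADAM17 to the cell surface, Timp3 (by 0.27), an inhibitor of such proteases, Gab2 (by 0.50), Rnf41 (by 0.48), a ubiquitin ligase for ERBB3, and Spred1 (by 0.30), a restrainer of the RAS pathway. Their adjusted p-values lay between 0.0066 and 0.0467. All 6 of 6 measured ciliated cell markers rose in Ptend/dSmad4d/d and in Ptend/d lungs, with sums of 3637 to 4313 and 3631 to 3935, against 1741 to 1830 in wildtype lungs. Endothelial sums were 15140 to 18464 and 18154 to 19112, against 20778 to 21552, with 2 of 7 markers lower in each mutant. Of 6 mucous cell markers 2, Agr2 and Muc5b, rose in each mutant, with the sums given beside Ereg. In Ptend/d lungs 2 of 4 B cell markers (Cd79a and Cd79b) also rose and 2 of 5 smooth muscle markers (Tagln and Des) fell. The part of this makeup in the levels of ligands and pathway genes was not tested.

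**Figure D4:**
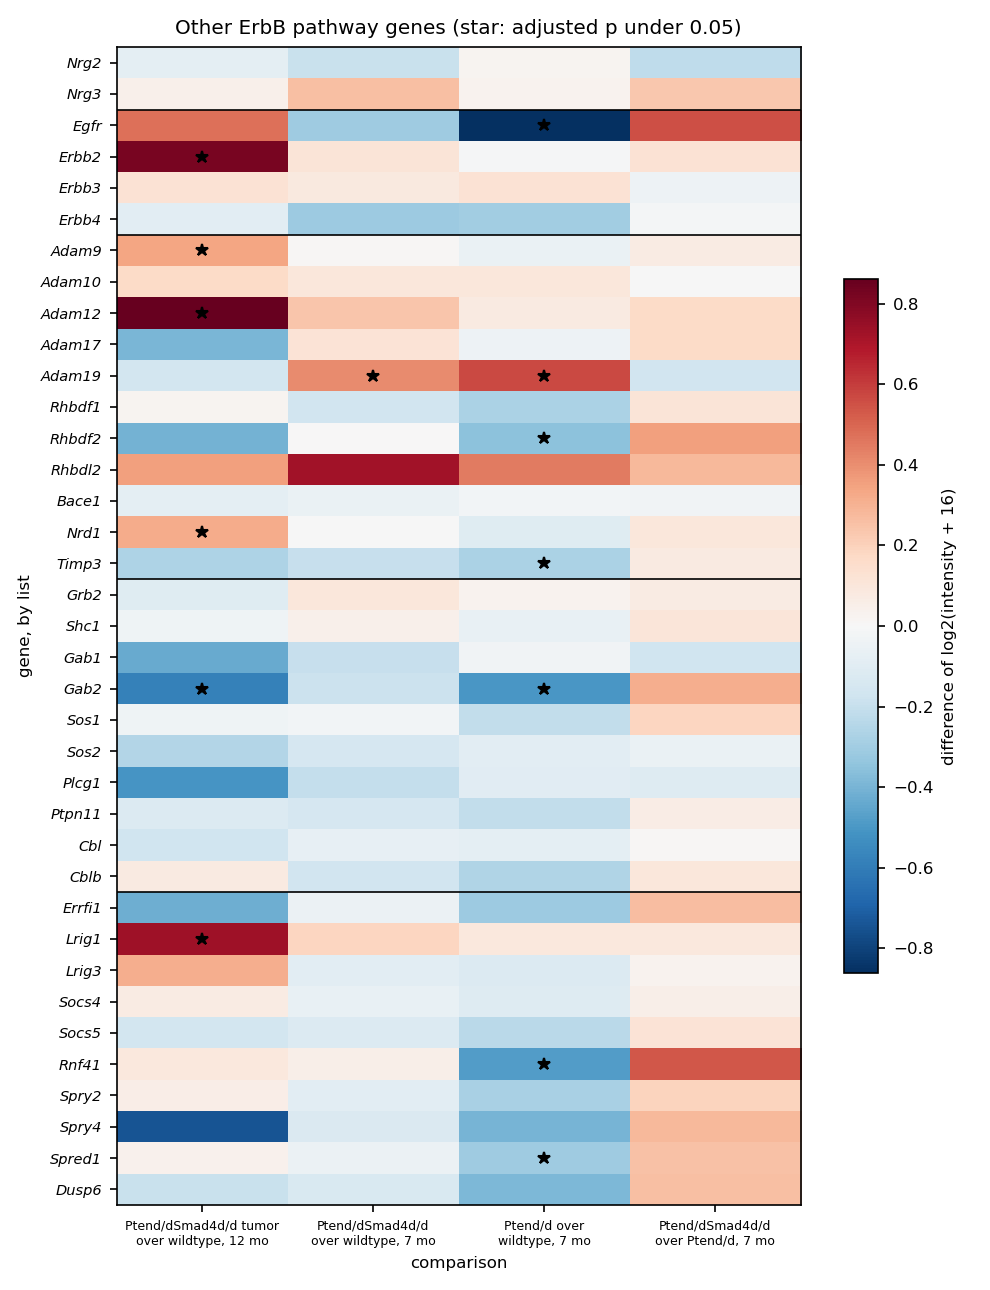
Log2 differences of log2(intensity + 16) for 37 further genes of the ErbB pathway, grouped from top to bottom as other neuregulins, receptors, ligand release, adaptors and receptor restraint, with a star where the adjusted p is under 0.05. Stars mark 5 genes higher and 1 lower in the tumors, 1 higher in Ptend/dSmad4d/d lungs, 1 higher and 6 lower in Ptend/d lungs, and 0 between the mutants.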

How the data were processed

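RNA of 15 mouse lung and lung tumor samples was labelled with biotin by an Affymetrix protocol that primes at the poly(A) tail, per the labels. The deposited values are intensity per probe set on a linear scale (45101 probe sets); how they were background-corrected, summarized and scaled is not stated in these sources. The platform annotation listed 35890 probe sets: 34958 named 1 gene, 932 several and 0 none, and 9211 were unnamed here. Values were tested as log2(intensity + 16) with limma (3.58.1, under R 4.3.3; moderated two-sided test by lmFit and eBayes), with Benjamini-Hochberg adjustment over 18193 genes. The 6 arrays of 12 months and the 9 of 7 months were fitted apart, and the difference of differences over all 15. The pseudocount compresses differences of dim genes. Labels do not say whether each array holds a separate animal. At 12 months every label but that of 1 tumor carries a number of its own, whose meaning is not stated. The p-values thus measure the spread between samples, which may be technical.

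The ligands and all gene lists were chosen with earlier results of these data known. The text names every ligand and the pathway genes that were called, besides Erbb3, Erbb4 and Errfi1. For ligands with a mean of at least 64 in some group, the 3 genes most like them over the arrays, or the first, are named. Replicate numbers shared by the 7-month groups do not pair the arrays: deviations of same-numbered arrays correlated at -0.13 to 0.16 over 9 pairs. The fit was tested on simulated data. Alternatives were other pseudocounts, filters, scalings, probe set choices, variance models, fitted samples and leaving out arrays. Promoter windows and gene order come from RefSeq tables of GRCm38.p6.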

Additional observations from a re-analysis of the deposited data

Results flagged for a closer look

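The second probe set of Btc, 1421161_at, which stands outside the gene-level comparisons, differed in Ptend/d lungs from the wildtype lungs of 7 months by 0.50 on the log2(intensity + 16) scale (adjusted p = 0.0184, limma over 34945 probe sets). It was higher on 3 of 3 Ptend/d arrays than on any wildtype array, at levels of 28.9 to 56.0 where the added 16 compresses differences. The chosen probe set 1435541_at had a difference of 0.11 (adjusted p = 0.511 over genes). Which transcripts the probe sets read was not tested.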

How the results depend on the processing

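Over all alternatives, 0 calls of a ligand turned direction, and 25 differences of single ligands that were not called changed sign. Ligands were called in 6 cases. In Ptend/d against wildtype lungs, leaving out genes with a mean under 64 called 1 of the 4 ligands left (Nrg1), and the mean of all probe sets called 1 of 8 (Btc, 0.30, adjusted p = 0.0198). Leaving out single arrays gave 0 to 1 called ligands in the tumors (Hbegf, without tumor array 2), in Ptend/d against wildtype (Nrg1, without wildtype array 3), in Ptend/dSmad4d/d against wildtype (Ereg, without Ptend/dSmad4d/d array 1) and in the difference of differences (Ereg, without tumor array 2). Counts of all called genes, against which the ligands are read, moved more. In the tumors 2774 genes were called; 1 was with the wildtype array without Xist alone, 2169 with the spread then pooled over 15 arrays (chosen after seeing the data), 4926 in 1 model of 15 arrays, and 842 (without wildtype array 3) to 3326 (without tumor array 2) without single arrays. In Ptend/d against wildtype 2765 were called, and 1648 to 2875 without single arrays, lowest without Ptend/d array 1. In Ptend/dSmad4d/d against wildtype 1421 were called, 767 when only these groups were fitted and 942 (without Ptend/dSmad4d/d array 2) to 1217 without single arrays. In Ptend/dSmad4d/d against Ptend/d 320 were called; pseudocounts of 1 and 64 gave 198 and 554, leaving out dim genes 557, a variance trend with robust fitting 562, 1 model of 15 arrays 205, and single arrays left out 99 (Ptend/d array 1) to 318. The replicate number as a block gave 198 there, with 0 ligands called, and changed no call of a ligand. In the difference of differences 576 were called, 382 with a pseudocount of 1, 59 with the wildtype array without Xist alone and 270 (without Ptend/dSmad4d/d array 1) to 1830 (without tumor array 2) without single arrays. The causes were not tested. A fit of fewer arrays has fewer degrees of freedom, and the part of this was not tested either. Ereg and Epgn at 7 months lie near the added 16: with 1 added, the difference of Ereg between Ptend/dSmad4d/d and wildtype lungs was 1.04 (adjusted p = 0.164), and with 64 it was 0.38 (adjusted p = 0.137).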
